A study of Glycine max with 4 samples.

Results

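In soybean (Glycine max) roots, 160 genes were over 2-fold lower in both libraries of GmHAD1-2-suppressed transgenic plants (Ri) than in either wild-type (WT) library. They were chosen by their deposited expected counts among the 47973 genes listed in at least 1 of the 4 libraries. Each count was divided by its library's total and scaled to CPM (counts per 1000000 counts of a library), a gene had to average at least 8 CPM over the 4 libraries, and the higher of its 2 Ri values had to lie below the lower of its 2 WT values by more than 2-fold. The level filter left 20233 genes, so the 160 made up 0.791% of those that could be chosen. The rule used every library and the genotype contrast itself, so the lower level in Ri is how the genes were picked and is described here without a test.

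The 2 Ri libraries are from transgenic soybean plants labelled as having GmHAD1-2 suppressed, and the 2 WT libraries are from plants labelled wild type. Neither the means of suppression, its promoter, the number of independent transgenic events nor the cultivar of each group was given in the sources used here. Plants of both groups grew in nutrient solution for 12 days with KH2PO4 supplied, at a concentration given as 250 mM (a unit in doubt, since nutrient solutions usually hold micromolar phosphate), and roots were taken. The libraries are called biological replicates, and the number of plants behind each was not given. No gene identifier could be paired with a gene name, so neither the suppression of GmHAD1-2 nor the root identity of the samples was checked against marker genes.

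The name GmHAD1-2 refers to haloacid dehalogenases (HAD), a superfamily whose plant members include many phosphatases that release inorganic phosphate from organic compounds. In plants such enzymes are best known from the response to phosphate shortage, when roots recycle phosphate from their own metabolites and from the soil. Soybean descends from a duplicated genome, so many of its genes have a close copy on another chromosome, and sequenced fragments that match both copies have to be divided between them. The deposited expected counts are estimates that can carry such divisions.

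The libraries were of similar depth, with 10077854 and 11070260 expected counts in Ri replicates 1 and 2 and 10713625 and 10686759 in WT replicates 1 and 2. At these depths 3 counts, taken as the floor of a library, equal 0.271 to 0.298 CPM. The Ri replicates differed from each other more than the WT replicates did: over the 20233 genes the SD of the difference in log2(CPM + 0.1) was 0.61 between the Ri replicates and 0.32 between the WT replicates. Leaving out a library relaxes the separation, and the average for the level filter is then taken over the remaining libraries. The altered rule chose 270 genes without Ri replicate 1 and 466 without Ri replicate 2, with all 160 kept in both. It chose 175 without WT replicate 1 and 248 without WT replicate 2, with 140 and 150 of the 160 kept.

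Summed over the 160 genes, the level was 3325 and 2745 CPM in Ri replicates 1 and 2, against 14968 and 11971 CPM in WT replicates 1 and 2. The genes thus took 0.332% and 0.274% of the Ri libraries and 1.5% and 1.2% of the WT libraries. The summed level in Ri was 22.5% of that in WT, and the median gene stood at 23.2% of its WT level, within a range of 1.45% to 46.7%. On the log2(CPM + 0.1) scale the median difference, Ri minus WT, was -2.14, with quartiles of -2.94 and -1.69. Over all 20233 genes the median was 0.00. In these bulk root samples, fewer cells of a type and less RNA per cell cannot be told apart.

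**Figure D1:**
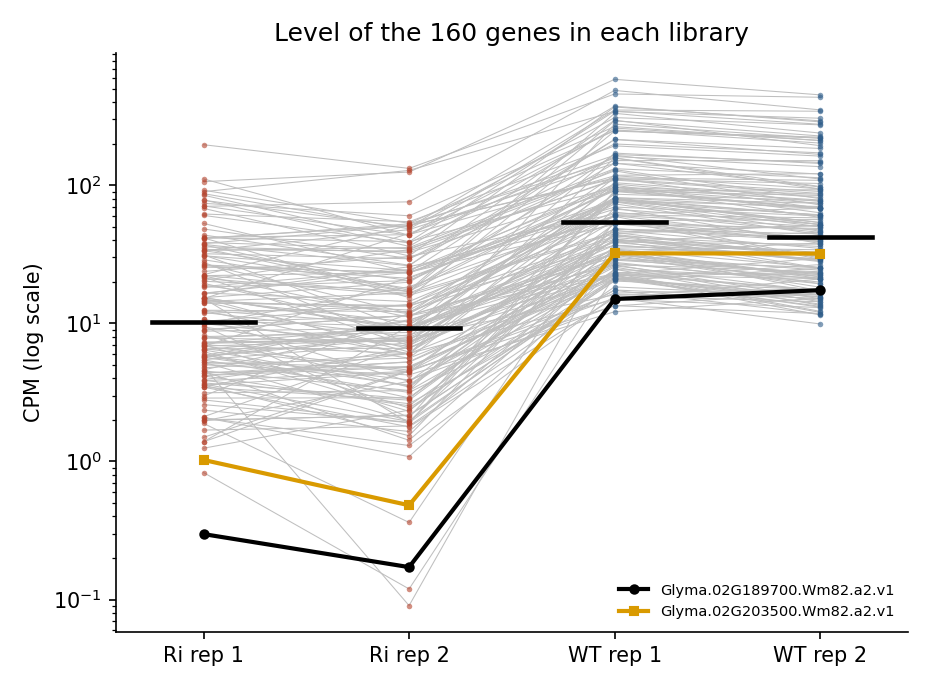
CPM (log scale) of each of the 160 genes in the 4 libraries, with 1 grey line per gene, red points for Ri, blue points for WT and black bars for the medians. The medians were 10.2 and 9.20 CPM in Ri replicates 1 and 2 and 54.1 and 42.4 CPM in WT replicates 1 and 2, and the heavier lines are the 2 genes with the widest separation.

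The median level per gene was 10.2 and 9.20 CPM in the Ri libraries and 54.1 and 42.4 CPM in the WT libraries. No gene was at 0 in any library, and 1 gene in Ri replicate 1 and 3 genes in Ri replicate 2 stood at or under the floor of 3 counts. A measurable level thus remained in Ri for nearly all of the 160 genes. By the higher Ri value against the lower WT value, 16 genes were separated by more than 8-fold, 42 by 4-fold to 8-fold and 102 by 2-fold to 4-fold.

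The 2 genes with the widest separation both carry identifiers of chromosome 2. Glyma.02G189700.Wm82.a2.v1, with 3 listed transcripts, had 0.298 and 0.172 CPM in Ri replicates 1 and 2, against 15.0 and 17.4 CPM in WT replicates 1 and 2. Its Ri values lay at and below the floor, and both WT values were far above it. Pooled over libraries it had 5 counts in Ri and 347 in WT, a ratio of 1.46% with an exact 95% binomial interval of 0.470% to 3.44%, which covers counting error only. Glyma.02G203500.Wm82.a2.v1 has 1 listed transcript of 3272 bases and had 1.03 and 0.481 CPM in Ri replicates 1 and 2, against 32.2 and 32.0 CPM in WT replicates 1 and 2. The WT replicates of this gene were nearly equal, and the pooled ratio was 2.36% (exact 95% binomial interval 1.34% to 3.86%). Both genes were picked for the widest separation in these same counts, and neither interval allows for that choice. The pooled counts are estimates rounded to whole numbers.

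The remaining genes are described by their rank in this separation and by chromosome, because no table used here ties the identifiers to products. Rank 3, on chromosome 3, had 1.89 and 0.361 CPM in Ri replicates 1 and 2, against 55.8 and 29.1 CPM in WT replicates 1 and 2. Rank 4, on chromosome 4, had 0.831 and 0.119 CPM in Ri, against 22.0 and 11.5 CPM in WT. In both genes WT replicate 1 was nearly at 2 times WT replicate 2, and Ri replicate 1 was several times Ri replicate 2. The lack of overlap between the genotypes in these genes was required by the rule. Rank 32, on chromosome 15, had the most unequal Ri values of the 160, at 4.86 and 0.0903 CPM in Ri replicates 1 and 2, against 38.5 and 29.1 CPM in WT.

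Levels can be set beside each other between genes only per length, for which the authors' FPKM (fragments scaled by gene length and depth) was used. The median of the genes' mean FPKM was 6.63 in Ri and 36.9 in WT, where all 20233 genes had medians of 12.4 in Ri and 12.4 in WT. A high WT level was partly built in, since a gene low in Ri could reach the filter on the mean only through WT. The gene with the highest WT level of the 160, on chromosome 12 and rank 62, had 58.0 and 37.0 FPKM in Ri replicates 1 and 2, against 278 and 215 FPKM in WT replicates 1 and 2. Next came a chromosome 10 gene of rank 131, with 106 and 71.2 FPKM in Ri, against 247 and 234 FPKM in WT. A second chromosome 12 gene, of rank 42, had 35.9 and 25.1 FPKM in Ri, against 285 and 187 FPKM in WT. These abundant genes kept a level in Ri that was still above the median of all genes.

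**Figure D2:**
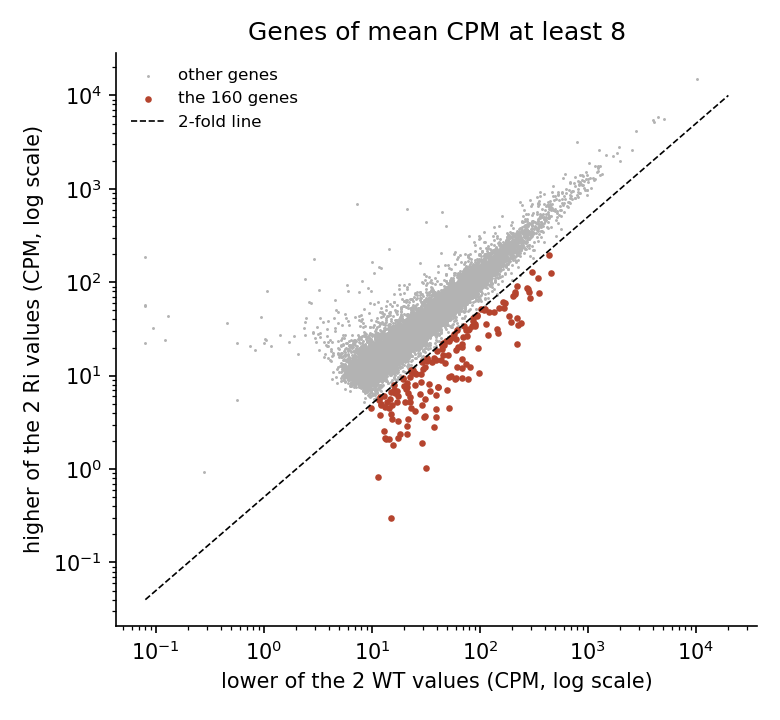
Higher of the 2 Ri values against the lower of the 2 WT values (CPM, both axes logarithmic) for the 20233 genes, with the 160 genes in red, the others in grey and the 2-fold line dashed; values below the axis are drawn at its edge. The red points lie below the 2-fold line by the rule, at all levels and without a gap beside the line, and 16 of them lie beyond 8-fold.

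The share of genes chosen was highest at the highest levels. Of the genes averaging 8 to 16 CPM, 0.663% were among the 160, and of those at 16 to 32 CPM 0.620%. The share was 0.896% at 32 to 64 CPM, 1.07% at 64 to 128 CPM and 1.55% above 128 CPM, where 18 of 1159 genes were chosen. The 10 genes of the highest WT level in CPM made up 26.8% of the summed WT level of the 160.

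Near the threshold the values were continuous. The last gene inside, on chromosome 17, had 9.0 and 11.4 CPM in Ri against 30.1 and 22.9 CPM in WT, so that its higher Ri value was 49.8% of its lower WT value. The first gene outside, on chromosome 13, had 9.72 and 10.9 CPM in Ri against 23.0 and 21.8 CPM in WT, at 50.1%. The next ones inside stood at 49.7% and 49.6%, and the next ones outside at 50.2% and 50.2%.

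In the edgeR quasi-likelihood test over 34151 genes, with Benjamini-Hochberg adjusted p under 0.05 as the threshold, 0.117% of genes were called lower in Ri. All 160 genes were tested and 36 of them were called, out of 40 calls in all. DESeq2 called 0.739% of 35839 genes lower, and 152 of the 160 were among these 265 lower calls. Another 36 genes were called higher in Ri by DESeq2. Without WT replicate 1 and without WT replicate 2 edgeR called 0% of all genes lower and 0 of the 160. Without Ri replicate 1 it called 2.39% of all genes lower and 158 of the 160, and without Ri replicate 2 it called 2.78% of all genes lower and all 160. Both tools used the contrast that chose the genes, so nothing is read from these counts. Lack of overlap without a size requirement, with both Ri values below both WT values, held for 19.0% of the 20233 genes, and it held for the 160 by definition.

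A feature the rule did not use was the number of transcripts that the deposited tables list for a gene. Among the 160 genes, 145 had 1 listed transcript (90.6%), against 57.5% of all 20233 genes. Of the 11630 genes with 1 transcript 1.25% were among the 160. The corresponding shares were 0.233% of 4283 genes with 2 transcripts, 0.199% of 2008 with 3 transcripts and 0.0433% of 2312 with 4 or more. The tables show how many transcript models the annotation holds, not how many were expressed, and more models are usually annotated for genes with several introns.

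The high share of genes with 1 transcript held at every level. It was 88.6% of the members at 8 to 16 CPM, 94.7% at 16 to 32 CPM, 89.5% at 32 to 64 CPM, 86.4% at 64 to 128 CPM and 94.4% above 128 CPM. All genes in the same ranges had shares of 59.7%, 55.8%, 55.9%, 56.8% and 60.5%. By separation, the share was 93.8% of the 16 genes beyond 8-fold, 92.9% of the 42 at 4-fold to 8-fold and 89.2% of the 102 at 2-fold to 4-fold. All 3 shares were above that of all genes.

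Genes with 1 transcript were also more frequent in other groups of variable genes. Of the 16 genes that met the mirror rule (more than 2-fold higher in both Ri libraries), 13 had 1 transcript (81.3%). Of 168 genes outside the 160 whose WT replicates were more than 2-fold apart, 76.8% had 1 transcript, and of 1329 such genes whose Ri replicates were more than 2-fold apart it was 70.0%. The share among the 160 was above those of these 3 groups, and the differences were not tested.

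The 15 genes with several transcripts were spread over the ranking. They included rank 1, rank 26 on chromosome 14 with 7.84 and 9.11 CPM in Ri against 97.4 and 58.5 CPM in WT, and rank 63, also on chromosome 14. The gene of rank 63 had the highest CPM in WT, at 106 and 125 CPM in Ri against 586 and 452 CPM in WT. Their median difference on the log2(CPM + 0.1) scale was -2.06, beside -2.14 for the 145 genes with 1 transcript.

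Shorter genes were more frequent among the 160. Their median length in the deposited tables was 1501.5 bases (quartiles 1189.5 and 1902.5 bases), against 1902 bases for all 20233 genes (quartiles 1366 and 2625 bases). Just 6 of the 160 were 3000 bases or longer, 0.173% of the 3472 genes of that size. The share was 1.17% of genes under 1000 bases, 1.30% from 1000 to under 1500 bases, 1.01% from 1500 to under 2000 bases and 0.482% from 2000 to under 3000 bases.

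Transcript number went with membership within each length class. Within genes of 1 transcript, 1.58%, 1.84%, 1.68%, 0.691% and 0.366% were among the 160 in these 5 classes from the shortest to the longest. Within genes of several transcripts the shares were 0%, 0.388%, 0.146%, 0.229% and 0%, from 0, 6, 3, 6 and 0 genes. In each of the 5 length classes the share was higher for genes of 1 transcript.

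**Figure D3:**
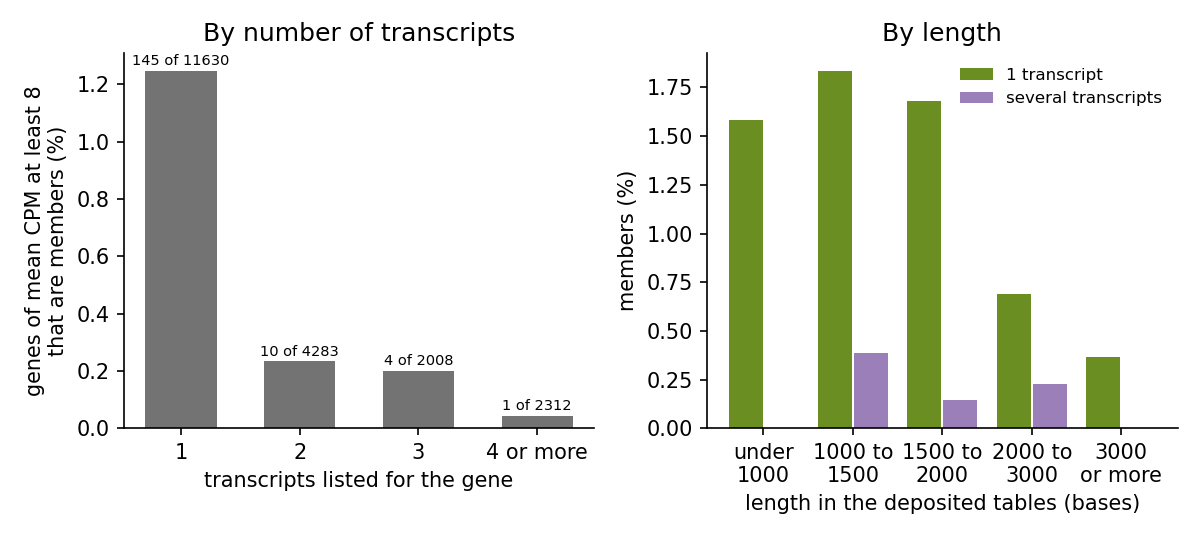
Percentage of genes averaging at least 8 CPM that were among the 160, by the number of listed transcripts (left) and by length in bases for genes with 1 transcript and with several (right). The share was 1.25% for 1 transcript and 0.0433% for 4 or more, and in all 5 length classes the bar for 1 transcript is the taller one.

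The WT replicates were ordered alike in most of these genes. In 142 of the 160 (88.8%) WT replicate 1 was higher than WT replicate 2, against 54.9% of all 20233 genes. The median difference in log2(CPM + 0.1), WT replicate 1 minus WT replicate 2, was 0.35 for the 160 and 0.03 for all genes. Just 2 genes were more than 2-fold higher in WT replicate 1 and 0 in WT replicate 2, so the difference was common but small. The rule bounds the lower WT value from below and does not say which replicate holds it.

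The order was found under each scaling of the libraries. With TMM-scaled sizes WT replicate 1 was higher in 85.0% of the 160 and in 45.0% of all genes, and with DESeq2 size factors in 83.8% and 42.6%. Nor was it found at only 1 level. Among all genes the share with WT replicate 1 higher was 62.8% at 8 to 16 CPM and 40.3% above 128 CPM. Among the 160 it was 79.5% (35 of 44) at 8 to 16 CPM and 100% (18 of 18) above 128 CPM.

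The WT order was found at each width of separation. WT replicate 1 was higher in 15 of the 16 genes beyond 8-fold, in 40 of the 42 at 4-fold to 8-fold and in 87 of the 102 at 2-fold to 4-fold. The median differences in log2(CPM + 0.1) were 0.44, 0.40 and 0.31. The 16 genes of the mirror rule had no such lean, with WT replicate 1 higher in 8 of 16.

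In Ri the replicates were less alike. Ri replicate 1 was higher than Ri replicate 2 in 95 of the 160 (59.4%), against 46.3% of all genes; with TMM-scaled sizes the shares were 63.1% and 53.4%. More than 2-fold differences between the Ri replicates were found in 39 of the 160. Ri replicate 1 was the higher one in 30 of these and Ri replicate 2 in 9. Of all 20233 genes, 1.57% were more than 2-fold higher in Ri replicate 1 and 5.19% in Ri replicate 2. Among the 160 the shares were 18.8% and 5.63%, with Ri replicate 1 as the more frequent high one. The direction in both sets was the same with TMM-scaled sizes.

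By separation, Ri replicate 1 was higher in 11 of the 16 genes beyond 8-fold, in 31 of the 42 at 4-fold to 8-fold and in 53 of the 102 at 2-fold to 4-fold. By level, it was higher in 15 of the 18 genes above 128 CPM and in 20 of the 44 genes at 8 to 16 CPM. An example among the abundant ones is the chromosome 11 gene of rank 8, with 21.7 and 6.89 CPM in Ri replicates 1 and 2, against 277 and 219 CPM in WT replicates 1 and 2. A case of the opposite kind is the chromosome 14 gene of rank 122, with 1.39 and 9.58 CPM in Ri, against 22.6 and 23.2 CPM in WT.

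By both orders, 84 of the 160 genes (52.5%) ran from Ri replicate 2 as the lowest through Ri replicate 1 and WT replicate 2 to WT replicate 1 as the highest. In 58 genes only the Ri replicates changed places, in 11 only the WT replicates and in 7 both. Among all 20233 genes, Ri replicate 1 over Ri replicate 2 with WT replicate 1 over WT replicate 2 was found in 18.6%. The 52.5% is close to what the separate shares of 88.8% and 59.4% give together. Across the 160 genes the WT and Ri replicate differences had a correlation of -0.12, against -0.30 across all genes. The libraries hold no label of a growth, extraction or sequencing batch, so a part of such a batch in these orders was not tested.

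**Figure D4:**
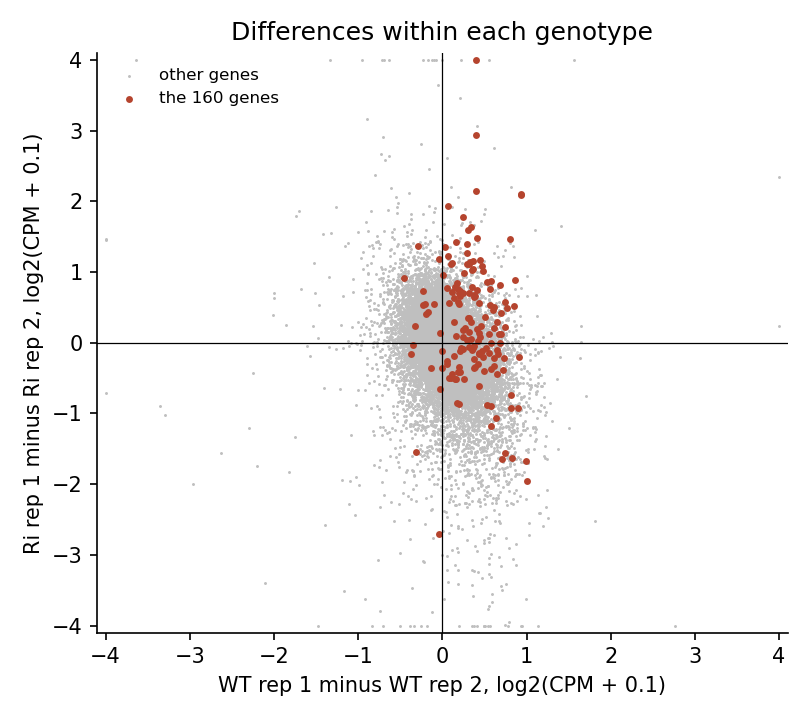
Difference between the Ri replicates against the difference between the WT replicates, both in log2(CPM + 0.1) as replicate 1 minus replicate 2, with the 160 genes in red and the other genes averaging at least 8 CPM in grey; values beyond the axes are drawn at their edge. Of the red points 142 lie right of 0, with WT replicate 1 higher, and 95 lie above 0, with Ri replicate 1 higher.

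The 160 genes lay on all 20 chromosomes by their identifiers, with 1 on an unplaced sequence. Chromosome 2 held the most, 17 genes, or 10.6% of the 160 against 5.54% of all 20233 genes. Chromosome 14 came next relative to its size, with 11 genes (6.88% against 3.84%), followed by chromosome 12 with 11 (6.88% against 4.38%). Chromosome 13 held 13 genes, close to its share of all genes (8.13% against 6.96%). The lowest shares relative to size were those of chromosome 18 with 3 genes (1.88% against 4.71%) and chromosome 1 with 3 (1.88% against 4.30%).

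On its own, chromosome 2 held 9 of the 58 genes beyond 4-fold, or 15.5%, and whether this differs from its 10.6% of the 160 was not tested. Of its 17 genes, 5, 6 and 6 lay in the first, middle and last of 3 equal parts of its genes in identifier order. Such wide parts do not show closer grouping. Ranks 1, 111, 21, 2 and 16 follow one another among the 17 in identifier order, and whether they are grouped was not tested. The share on chromosome 2 was 8.62% with an average of at least 16 CPM required. None of the 10 genes with whole counts lay on chromosome 2, but 10 genes are too few to show a share of this size.

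**Figure D5:**
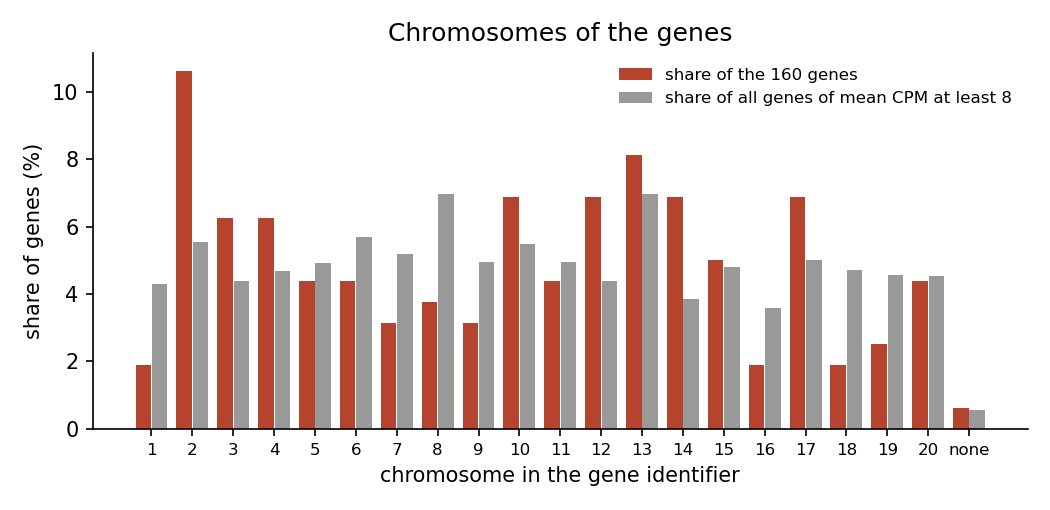
Share of the 160 genes (red) and of all 20233 genes averaging at least 8 CPM (grey) on each chromosome, in percent, by the chromosome number in the identifier, with none standing for unplaced sequences. Chromosome 2 has the tallest red bar, 10.6% against 5.54% of all genes.

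Most neighbours of the 160 genes were not among the 160 themselves. Each gene has up to 2 neighbours in identifier order among the 20233 genes. This gave 318 neighbours, 8 of them members themselves, where members made up 0.791% of the 20233 genes. The 310 others had a median difference in log2(CPM + 0.1), Ri minus WT, of -0.05, against 0.00 for the neighbours of all genes. A difference below -1 was found in 9 of the 310 (2.90%), against 0.897% of all genes outside the 160. Both counts ran above these background shares, and neither difference was tested.

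In 5 cases members were at most 5 identifiers apart, and in 2 of these the identifiers were consecutive. One consecutive pair on chromosome 2 holds Glyma.02G203500.Wm82.a2.v1 and the gene of rank 21, which had 2.07 and 1.30 CPM in Ri against 15.8 and 14.3 CPM in WT. The other, on chromosome 3, holds rank 119 with 5.01 and 4.23 CPM in Ri against 12.1 and 15.2 CPM in WT, and rank 93 with 14.4 and 16.6 CPM in Ri against 63.9 and 45.6 CPM in WT. Neighbours of this kind can be tandem copies that share fragments or overlapping models, and whether strand was used in counting is not given in the sources used here.

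A further pair on chromosome 3 had 1 gene between its members, and that gene followed them at a low level. The member of rank 48 had 15.3 and 19.9 CPM in Ri against 145 and 97.1 CPM in WT, and that of rank 60 had 5.23 and 1.97 CPM in Ri against 20.4 and 25.1 CPM in WT. The gene between them had 0.561 and 0.870 CPM in Ri against 5.62 and 4.36 CPM in WT, which left it under the level filter. The pair on chromosome 17, of ranks 52 and 10, enclosed 2 genes that did not meet the rule. The first had 8.72 and 50.7 CPM in Ri against 30.3 and 44.9 CPM in WT, and the second had 5.21 and 11.8 CPM in Ri against 17.0 and 23.5 CPM in WT. Their Ri values overlapped or came near those of WT.

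Most genes had expected counts that were not whole, as arises where fragments are divided among similar genes, which was not checked here. Whole expected counts in all 4 libraries (within 0.005) were found for 10 of the 160 (6.25%) and for 8.39% of the 20233 genes. The one of these 10 with the widest separation, on chromosome 6 and rank 19, had 9.53 and 2.08 CPM in Ri replicates 1 and 2, against 91.2 and 69.0 CPM in WT replicates 1 and 2. Next came rank 56 on chromosome 1, with 4.37 and 5.24 CPM in Ri against 23.3 and 22.4 CPM in WT. As members, these genes too were chosen for their separation. The part of fragment division in the values of the 160 was not tested.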

How the data were processed

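RNA of 2 Ri and 2 WT soybean root libraries was isolated with Trizol and made into libraries with a BGI kit, per the labels' protocols. Per the file headers, the authors deposited 1 table per library with a gene identifier, its transcripts, a length in bases, an expected count and an FPKM value. The deposited expected counts are estimated fragments per gene, not normalized. FPKM was scaled by the authors for length and depth. The tools in the submitters' processing notes are Bowtie2, HISAT and RSEM, listed with neither role nor version. Identifiers end in Wm82.a2.v1, and an unlisted gene was taken as 0.

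CPM uses library totals. Log2 differences use log2(CPM + 0.1). The edgeR quasi-likelihood test (edgeR 4.0.16, R 4.3.3; TMM, default filter, robust, genotype as the only term) and DESeq2 1.42.0 ran on expected counts rounded to whole numbers, and limma 3.58.1 ran on voom output and on log2 FPKM with pseudocounts of 1 and 0.1. The edgeR fit was tested on simulated data with known changes. The simulated counts had the same dispersion per gene in both genotypes, so the unequal spread of the Ri and WT replicates was not covered. P-values set the genotype difference against the spread between 2 libraries per genotype, which these tools estimate partly from other genes. They cover no spread beyond these libraries.

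None of the identifiers matched the 59048 genes of the reference table (Glycine_max_v4.0; 0 matches), so the product-name lists were not applied. At most 2 identifiers are printed, those with the widest separation, and other genes are given by rank and chromosome. The genes and the measures were chosen with earlier results of these data known.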

Additional observations from a re-analysis of the deposited data

How the results depend on the processing

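The number of genes chosen was 160, and it was 174 with TMM-scaled sizes, 176 with DESeq2 size factors (159 genes shared with the 160 in both), 160 on deposited FPKM, 222 from 4 CPM and 116 from 16 CPM. It moved to 834 with no level filter, 320 at 1.5-fold, 82 at 3-fold and 58 at 4-fold, and leaving out 1 library gave 175 to 466. The cause of these moves beyond the altered rule was not tested. The result on FPKM was nearly fixed in advance, since FPKM scales the same fragments by depth and gene length. The share on chromosome 2 was 0% among the 10 genes of whole counts, too few to show a share, and 7.41% to 8.06% with 1 library left out. The share with 1 transcript was 84.4% at 1.5-fold and 82.6% to 89.1% with 1 library left out. The share with WT replicate 1 higher was 59.5% with no level filter, 78.1% at 1.5-fold, 95.1% at 3-fold, 94.8% at 4-fold, 100% among the genes of whole counts, and 71.9% without Ri replicate 1 to 82.8% without Ri replicate 2. The median length was 1191 bases with no level filter, 1674 at 1.5-fold, 1380.5 at 3-fold, 1349.5 at 4-fold and 1315.5 for whole counts, with 1569 to 1654.5 when 1 library was left out. The median log2 difference of the 160 was -1.92 to -2.34 with 1 library left out, and the summed level in Ri was 20.3% to 25.4% of WT.

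Of the 160, edgeR called 36 (0.117% of all genes tested were called lower), and 40 with DESeq2 size factors (0.138%). The count was 12 with upper-quartile factors (0.0351%), 13 with robust estimation off (0.0381%), 107 with no filter (0.313%) and 152 in DESeq2 (0.739%). Library totals only, limma-voom, limma on log2(FPKM + 1) and limma on log2(FPKM + 0.1) each tested 34151 genes. At an unadjusted p under 0.05, 1263, 1329, 1280 and 1263 of these were lower in Ri. The count of the 160 called was 0 in all of these fits. With 1 library left out it was 0 to 160: 0 without either WT library (555 and 666 genes lower at an unadjusted p under 0.05), then 158 without Ri replicate 1 (2.39%) and 160 without Ri replicate 2 (2.78%), where the single library left in a genotype is taken to vary as those of the other genotype do. With the replicate number as a block it was 71 (0.275%). Same-numbered libraries were not treated as paired, because the replicate differences in WT and Ri had a correlation of -0.30 across genes. The crossed pairing of numbers, an alternative chosen after seeing the data, gave 53 (0.184%). The product-name lists were not run. Depth limits levels below about 0.3 CPM.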

Other observations

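Genes below the level filter were looked at with the same 2-fold separation, as genes that the 160 do not hold. At an average of 4 to 8 CPM, 62 genes showed it, and 57 of them (91.9%) had 1 listed transcript, against 62.1% of the 5568 genes at that level. Their median length was 1326 bases, against 1657 bases. WT replicate 1 was higher than WT replicate 2 in 47 of the 62 (75.8%), against 65.5% of all genes at that level. At 2 to 4 CPM the pattern was found in 68 genes, of which 59 (86.8%) had 1 transcript, against 68.1% of 4301 genes. In these WT replicate 1 was higher in 64.7%, against 65.0% of all genes at that level, so the order of the WT replicates among the 160 was not found there, while the share with 1 transcript was again above that of all genes. No test of these differences was run.

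The 16 genes of the mirror rule, more than 2-fold higher in Ri, had a median length of 974.5 bases and lay on 10 chromosomes, with 3 on chromosome 13 and 1 on chromosome 2.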
